A study of Homo sapiens with 8 samples.

Results

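Expression of 10 genes that drive cells into and out of mitosis was examined in HCT116, a human colorectal cancer cell line, among 78932 genes listed in the count tables. The genes were chosen by name, by their role in the cell cycle, with earlier results of these data known. All 10 were found by Ensembl identifier. They are the cyclins CCNA2, CCNB1 and CCNB2, the kinases CDK1, PLK1, AURKA and AURKB, the phosphatases CDC25B and CDC25C, and CDC20. The cells carry the dTAG degradation tag on NUDT21, the small subunit of cleavage factor Im, which binds nascent RNA near poly(A) sites. One group of 4 libraries came from cells given DMSO, the solvent, plus JTE-607, and the other 4 from cells given dTAGV1 plus JTE-607. dTAGV1 is a small molecule that brings tagged proteins to an E3 ubiquitin ligase, and JTE-607 blocks CPSF73, the nuclease that cuts pre-mRNA before a poly(A) tail is added. Both groups therefore share the tagged gene and JTE-607, and no group lacks either. Doses, treatment times, the number of clones and whether libraries came from separate cultures are not given in the sources used here, so p-values measure the spread between these libraries, which may be technical.

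Mitosis is started by CDK1 bound to a B-type cyclin. WEE1 and PKMYT1 hold this complex inactive by phosphorylating CDK1, and CDC25 phosphatases remove those phosphates, with PLK1 and AURKA promoting the switch. AURKB acts later at centromeres and the midzone, and CDC20 activates the anaphase-promoting complex (APC/C), the ubiquitin ligase that destroys cyclins and so ends mitosis. Transcripts of most of these genes are made mainly in G2 and mitosis, under the MuvB complex, MYBL2, FOXM1 and NF-Y, which act at promoter elements named CHR and CCAAT box.

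Of the 10 genes, 9 were lower with dTAGV1 and 0 were higher. The fall was largest for CDC20, at 4.04-fold, followed by AURKB at 3.63-fold and CCNB1 at 3.04-fold, and smallest for CCNB2, at 1.65-fold. CDC25B alone did not pass the test, with a mean of 155 CPM with DMSO and 143 CPM with dTAGV1. CPM is the count of a gene in each 1000000 reads counted to genes, after scaling of the library. In bulk RNA, a smaller share of cells in G2 and mitosis and less RNA in each such cell cannot be told apart. Of all 12618 genes tested, 57.9% passed the same test, 28.5% as lower and 29.4% as higher with dTAGV1, so calls were common. The test was that of edgeR, with a threshold of 0.05 on the p-value after Benjamini-Hochberg adjustment. Fold changes are given as log2 of dTAGV1 over DMSO with their standard error (SE).

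Library depth, NUDT21 RNA and cell type markers were read first. Libraries held 3447842 to 4291256 reads counted to genes on the sense strand, and the 10 genes had 34 to 826 counts in a library, the fewest for CDC25C, at 34 to 153. NUDT21, the tagged gene, had 104, 139, 131 and 129 counts in DMSO replicates 1 to 4 and 34, 29, 15 and 43 counts with dTAGV1. That is 32.2 ± 2.81 against 8.25 ± 2.62 CPM (SD, n = 4 each), lower in all 4 dTAGV1 libraries. Protein, on which the tag acts, was not assayed, so NUDT21 RNA does not test whether the libraries are labelled correctly. Of 6 epithelial markers, EPCAM, CDH1, KRT8, KRT18 and KRT19 were detected in every library, and VIL1 had at most 3 counts. Of 4 markers of other cell types, PTPRC, PECAM1 and COL1A2 had at most 2 counts in any library, and COL1A1 had 37 to 73 and did not pass the test. KRT19 and KRT18 fell, with log2 fold changes of -0.65 and -0.60, and EPCAM rose with 0.28; the rise of EPCAM did not hold against a fold change of 1.2.

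Because 9 of the genes moved together, their promoters are shown. RefSeq windows on GRCh38.p14, each of 250 bases before and 50 bases after a transcript start, were at hand for 9 of the 10 genes (17 windows, AURKA having none in the table). Each was searched on both strands for CHR (TTTGAA), the CCAAT box (CCAAT) and an E2F site (the letters TTTGGCGC, TTTCCCGC, TTTGCCGC or TTTCGCGC). None of these motifs overlapped another in the stretches shown. The stretches below cover the 150 bases before a start, read 5′ to 3′ on the strand of the gene, with matches in capitals. Starts of a gene are numbered by position on the chromosome. The first CDC25C start, on the minus strand, is thus the most downstream of its starts. CDC20, PLK1, CCNB2, CDK1 and CDC25C are shown because a CHR and a CCAAT box lie in the same window. CCNB1 is shown as an example of a gene with CCAAT boxes as its only matches, which also holds for CCNA2, AURKB and CDC25B. CDC25B is shown because its RNA did not pass the test. The stretch shown for a gene does not stand for all its starts. CDC25B starts 1 and 4 held no match, and its starts 2 and 3 each held a CCAAT box. CDC25C starts 1 and 2 each held a CHR and a CCAAT box, and its starts 3 and 4 held no match. Only the letters given were searched, so a CHR with other letters would be missed.
CDC20 (chr1:43358831-43358980, plus strand): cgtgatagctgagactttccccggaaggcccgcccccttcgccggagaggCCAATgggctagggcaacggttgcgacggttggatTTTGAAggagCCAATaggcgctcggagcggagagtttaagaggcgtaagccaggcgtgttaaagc
PLK1 (chr16:23678739-23678888, plus strand): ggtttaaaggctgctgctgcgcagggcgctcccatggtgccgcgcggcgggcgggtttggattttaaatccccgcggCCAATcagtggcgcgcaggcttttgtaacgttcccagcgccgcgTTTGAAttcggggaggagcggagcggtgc
CCNB2 (chr15:59104996-59105145, plus strand): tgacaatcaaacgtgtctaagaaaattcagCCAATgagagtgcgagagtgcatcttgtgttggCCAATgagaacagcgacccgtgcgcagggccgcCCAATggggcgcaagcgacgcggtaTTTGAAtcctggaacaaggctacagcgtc
CCNB1 (chr5:69167000-69167149, plus strand): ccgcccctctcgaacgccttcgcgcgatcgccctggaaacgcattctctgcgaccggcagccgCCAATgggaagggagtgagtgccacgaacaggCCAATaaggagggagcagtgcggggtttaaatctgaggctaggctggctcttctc
CDK1 second start (chr10:60778328-60778477, plus strand): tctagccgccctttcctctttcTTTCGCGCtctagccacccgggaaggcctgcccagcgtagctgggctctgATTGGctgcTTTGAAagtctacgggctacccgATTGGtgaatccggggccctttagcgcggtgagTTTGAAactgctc
CDC25C first start (chr5:138331805-138331954, minus strand): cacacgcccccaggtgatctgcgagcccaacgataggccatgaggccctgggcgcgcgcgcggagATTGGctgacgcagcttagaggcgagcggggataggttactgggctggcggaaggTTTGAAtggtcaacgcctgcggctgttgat
CDC25B first start (chr20:3786801-3786950, plus strand): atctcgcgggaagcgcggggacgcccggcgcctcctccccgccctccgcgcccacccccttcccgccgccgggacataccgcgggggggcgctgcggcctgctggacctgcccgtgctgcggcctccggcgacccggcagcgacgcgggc

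CCAAT boxes were found in 13 of the 17 windows, against 34.6% of the 35116 windows of all genes. Each of the 9 genes had one in at least 1 window, and no share by gene was computed over all genes. A CHR was found in 7 of the 17 windows, from 5 genes (CDC20, PLK1, CCNB2, CDK1 and CDC25C), against 15.2% of all windows. All 7 also held a CCAAT box, a combination present in 5.90% of all windows. In CCNB2, CCAAT boxes began 120, 87 and 54 bases before the start, with 33 bases from each to the next, and the CHR began 29 bases before the start. CCNB1 and the second start of CDK1 each had a pair of CCAAT boxes that began 32 bases apart. The CHR of PLK1 also began 29 bases before its start, and that of the first CDC25C start 30 bases before. The E2F letters were found only in the windows of CDK1, against 3.31% of all windows. Of the 4 CDC25B windows, 2 held a CCAAT box and 0 a CHR. AURKB, CCNB1 and CCNA2 also had no CHR and were lower, with log2 fold changes of -1.86, -1.61 and -1.17. A match is a description of letters and not of a bound factor. Windows of 1 gene can overlap, and a site they share is counted more than once. This holds for the CHR and a CCAAT box of CDC25C, the CCAAT box of AURKB and the E2F letters of CDK1.

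**Figure D1:**
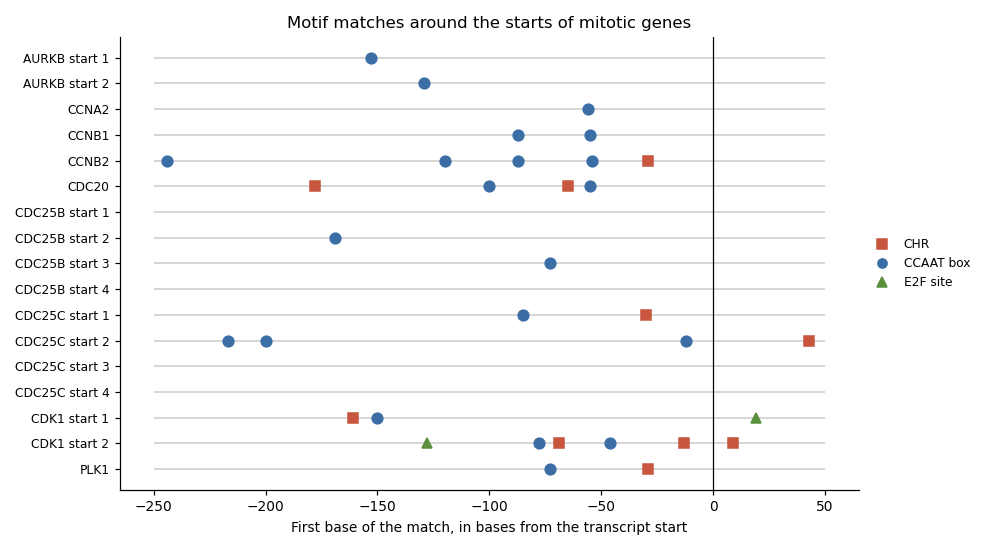
Matches to 3 motifs in the 17 promoter windows of 9 mitotic genes, each row a transcript start and the horizontal axis the distance in bases of the first base of a match from that start. Red squares (CHR) lie within 30 bases before the start in CCNB2, PLK1, the first CDC25C start and the second CDK1 start. The 4 rows of CDC25B hold none, and neither do those of AURKB, CCNA2 and CCNB1, which were lower with dTAGV1.

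The mitotic cyclins were measured next. CCNA2 (ENSG00000145386; chromosome 4, 121816444 to 121823933, minus strand, protein-coding), the cyclin that acts in S phase and G2, stood at 50.6, 78.6, 64.8 and 48.2 CPM in DMSO replicates 1 to 4. With dTAGV1 it stood at 22.7, 23.0, 24.5 and 36.4 CPM in replicates 1 to 4. The groups did not overlap, although dTAGV1 replicate 4 lay well above the other 3. This is a fitted log2 change of -1.17 (SE 0.18, edgeR with Benjamini-Hochberg adjusted p = 5.68e-05).

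CCNB1 (ENSG00000134057; chromosome 5, 69167010 to 69178245, plus strand, protein-coding), the main partner of CDK1 at mitotic entry, had 101, 199, 182 and 120.2 CPM in DMSO replicates 1 to 4. In dTAGV1 replicates 1 to 4 it had 49.0, 47.1, 46.3 and 54.9 CPM. The DMSO values spread over 1.97-fold and the dTAGV1 values over 1.19-fold, with no overlap. In log2 the difference came to -1.61 (SE 0.23, edgeR with Benjamini-Hochberg adjusted p = 0.000481). CCNB2 (ENSG00000157456; chromosome 15, 59105078 to 59125045, plus strand, protein-coding), the second B-type cyclin, had 60.9, 93.1, 82.4 and 57.6 CPM in DMSO replicates 1 to 4. With dTAGV1 it had 43.1, 42.6, 46.0 and 47.1 CPM. The gap between the lowest DMSO and the highest dTAGV1 library was small for CCNB2, and the groups still did not overlap. The change in log2 was -0.72 (SE 0.13, edgeR with Benjamini-Hochberg adjusted p = 7.25e-05). ENSG00000259732, annotated on the same strand, overlaps CCNB2 over 4012 bases and had at most 1 count in a library.

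CDK1 (ENSG00000170312; chromosome 10, 60778331 to 60794852, plus strand, protein-coding), the catalytic partner of these cyclins, had 108, 191, 171 and 141 CPM in DMSO replicates 1 to 4. In dTAGV1 replicates 1 to 4 it had 59.8, 57.1, 53.6 and 79.2 CPM. All dTAGV1 libraries were below all DMSO libraries, and the highest of them was again replicate 4. For CDK1 the fit gave -1.28 in log2 (SE 0.19, edgeR with Benjamini-Hochberg adjusted p = 0.000272).

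The CDC25 phosphatases, which remove the inhibitory phosphates from CDK1, differed from each other. CDC25C (ENSG00000158402; chromosome 5, 138285265 to 138338355, minus strand, protein-coding) had 21.3, 35.2, 40.8 and 18.3 CPM over the DMSO replicates 1 to 4 and, with dTAGV1, 11.6, 10.9, 10.02 and 9.46 CPM. This was the widest spread of any of the 10 genes within DMSO, at 2.23-fold, and the groups did not overlap. The fitted change was -1.46 in log2 (SE 0.24, edgeR with Benjamini-Hochberg adjusted p = 5.44e-05). CDC25B (ENSG00000101224; chromosome 20, 3786772 to 3806121, plus strand, protein-coding) had 184, 158, 149 and 128 CPM over the DMSO replicates 1 to 4 and, with dTAGV1, 128, 145, 146 and 153 CPM. These ranges overlapped, with 1 dTAGV1 library below every DMSO library. For CDC25B the fit gave -0.12 in log2 (SE 0.09, edgeR with Benjamini-Hochberg adjusted p = 0.284).

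PLK1 (ENSG00000166851; chromosome 16, 23677656 to 23690367, plus strand, protein-coding), a kinase needed from mitotic entry to cytokinesis, had 80.6, 148, 140 and 95.5 CPM in DMSO replicates 1 to 4. It had 49.6, 43.5, 39.2 and 58.2 CPM in dTAGV1 replicates 1 to 4. Both DMSO replicates 1 and 4 were low for PLK1, yet above every dTAGV1 library. This is a fitted log2 change of -1.28 (SE 0.22, edgeR with Benjamini-Hochberg adjusted p = 0.00111).

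AURKA (ENSG00000087586; chromosome 20, 56369389 to 56392337, minus strand, protein-coding), the Aurora kinase of spindle poles, had 88.8, 187, 166 and 108 CPM in DMSO replicates 1 to 4. Its dTAGV1 values were 55.3, 54.7, 66.3 and 72.1 CPM. The lowest DMSO library lay close to the highest dTAGV1 library, without overlap. AURKA had the largest SE of the 10 genes, 0.26, on a log2 change of -1.14 (edgeR with Benjamini-Hochberg adjusted p = 0.00743). AURKB (ENSG00000178999; chromosome 17, 8204733 to 8210600, minus strand, protein-coding), the kinase of the chromosomal passenger complex, had 131, 199, 184 and 118 CPM in DMSO replicates 1 to 4. With dTAGV1 it had 43.4, 40.5, 33.3 and 55.8 CPM. The highest dTAGV1 library was far below the lowest DMSO library. In log2 the difference came to -1.86 (SE 0.22, edgeR with Benjamini-Hochberg adjusted p = 9.50e-05).

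CDC20 (ENSG00000117399; chromosome 1, 43358955 to 43363203, plus strand, protein-coding), the mitotic activator of the APC/C, had 116, 160.1, 155 and 99.4 CPM in DMSO replicates 1 to 4. In dTAGV1 replicates 1 to 4 it had 37.7, 25.1, 31.8 and 36.2 CPM. The groups were widely apart. The change in log2 was -2.01 (SE 0.17, edgeR with Benjamini-Hochberg adjusted p = 2.70e-07), and 159 of the 12618 genes tested had an equal or larger fall. Processed pseudogenes of AURKA, AURKB, CCNB2 and CDC20 had 0 to 2 reads over all 8 libraries, while these 4 genes had 1799 to 3110. The files tally reads placed at more than 1 site apart from those of genes. Groups did not overlap for 9 of the 10 genes, all lower with dTAGV1, where 25.1% of the genes tested were lower without overlap and 50.9% lacked overlap in either direction.

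**Figure D2:**
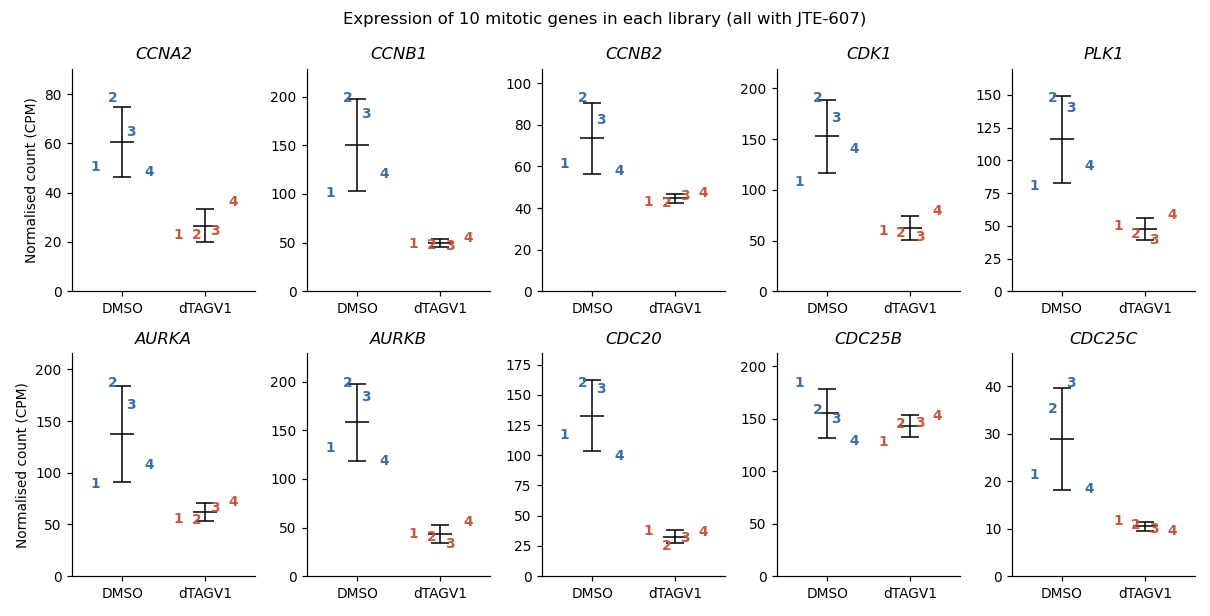
Normalised counts (CPM, vertical axis from 0) of the 10 mitotic genes in DMSO and dTAGV1 libraries, all with JTE-607; digits are replicate numbers, and bars are mean ± SD (n = 4 each). In every panel but that of CDC25B all dTAGV1 digits lie below all DMSO digits.

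The DMSO libraries differed among themselves in these genes. For 8 of the 10 genes the highest DMSO value was in replicate 2, and the lowest was in replicate 4 for 6 genes and in replicate 1 for 4. The median deviation of the 10 genes from the DMSO mean, in log2 CPM, was -0.30, 0.37, 0.25 and -0.29 in replicates 1 to 4. Over all genes tested, the same median lay between -0.00273 and 0.00844 in each of the 8 libraries. The ratio of the highest to the lowest DMSO library had a median of 1.73 over the 10 genes and of 1.23 over the 9322 genes averaging 10 CPM or more. With dTAGV1 these medians were 1.40 and 1.28, and the highest value was in replicate 4 for 8 of the 10 genes. Sense reads numbered 3544757, 4068513, 3734111 and 3961447 in DMSO replicates 1 to 4. The low replicates 1 and 4 were thus the shallowest and the second deepest. Those of dTAGV1 replicates 1 to 4 were 3645684, 3447842, 3553737 and 4291256, so the high replicate 4 was the deepest. Its share of unmapped reads, 20.4%, was also the lowest of the 8 libraries. The part of this spread in the fold changes was not tested beyond leaving out each library in turn, and 9 of the 10 genes were called lower in each of those 8 fits.

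**Figure D3:**
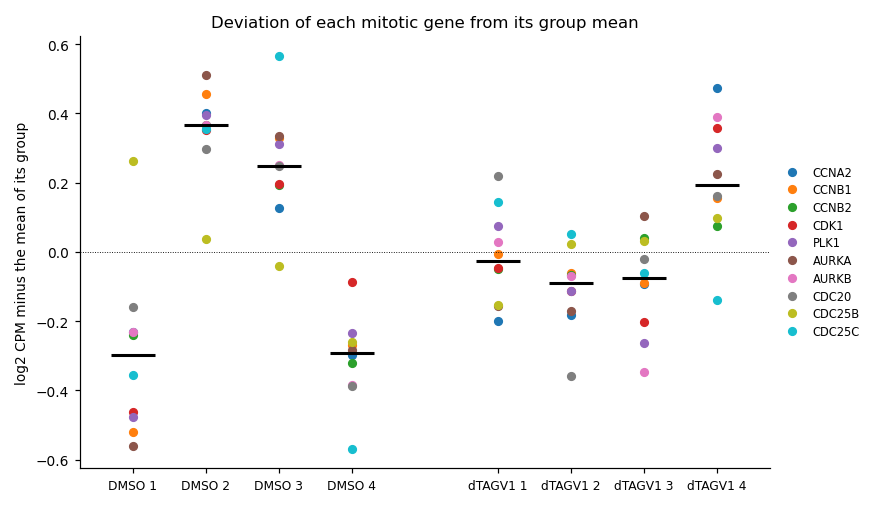
Deviation of each mitotic gene (coloured points) in log2 CPM from the mean of its own group, by library, with the median of the 10 genes as a black bar. Bars lie at 0.37 and 0.25 in DMSO replicates 2 and 3, at -0.30 and -0.29 in DMSO replicates 1 and 4, and closer to 0 with dTAGV1, where replicate 4 is highest at 0.19.

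Whether paired genes changed by the same amount was tested on the log2 ratio of their counts within each library, which does not depend on scaling. A pseudocount of 0.5 was added, and 5 pairs were tested by an exact permutation of the libraries between groups (2-sided), for which 0.0286 is the smallest p possible. The ratio of AURKA to AURKB was -0.56, -0.09, -0.15 and -0.13 over the DMSO replicates 1 to 4 and, with dTAGV1, 0.35, 0.43, 0.99 and 0.37. It was higher in every dTAGV1 library than in any DMSO library, so AURKB fell by more than AURKA, with a difference of the means of 0.77 (exact permutation p = 0.0286, Benjamini-Hochberg adjusted p = 0.0476). The ratio of CCNB1 to CCNB2 was 0.73, 1.09, 1.14 and 1.06 with DMSO and 0.19, 0.15, 0.01 and 0.22 with dTAGV1. CCNB1 lost more than CCNB2, with a difference of -0.86 (exact permutation p = 0.0286, Benjamini-Hochberg adjusted p = 0.0476). The ratio of CDC25B to CDC25C was 3.11, 2.16, 1.87 and 2.80 with DMSO and 3.45, 3.72, 3.84 and 3.99 with dTAGV1. It differed by 1.27, without overlap (exact permutation p = 0.0286, Benjamini-Hochberg adjusted p = 0.0476).

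The other pairs did not pass. For CCNA2 to CCNB1 the mean ratio was -1.28 ± 0.21 under DMSO and -0.91 ± 0.23 under dTAGV1 (SD, n = 4 each; exact permutation p = 0.0857, Benjamini-Hochberg adjusted p = 0.0857). For CDK1 to CCNB1 it was 0.05 ± 0.15 and 0.33 ± 0.14 (SD, n = 4 each; exact permutation p = 0.0571, Benjamini-Hochberg adjusted p = 0.0714). Libraries of both groups overlapped in these 2 ratios, which does not show that the genes changed equally.

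**Figure D4:**
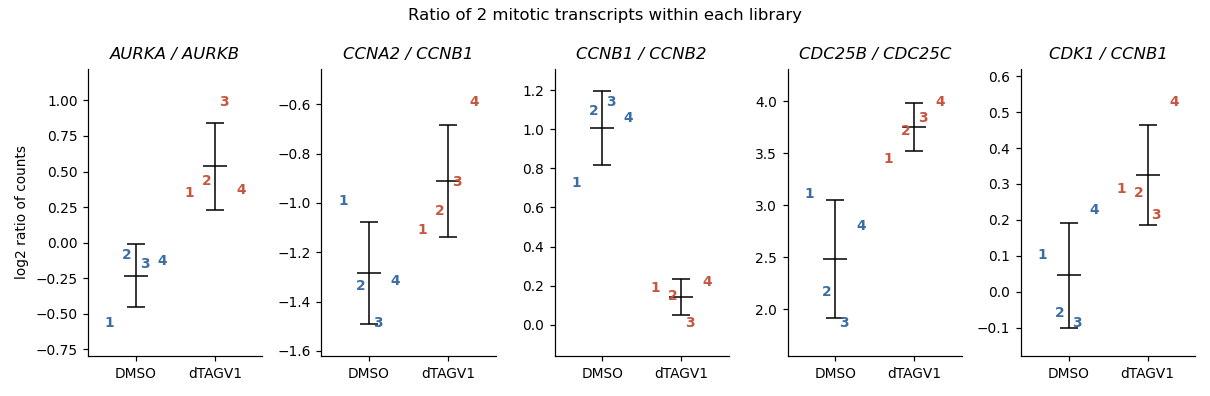
log2 ratio of the counts of 2 mitotic genes in each library, for 5 pairs; digits are replicate numbers, bars are mean ± SD (n = 4 each), and each panel has its own vertical range. The groups are apart for AURKA to AURKB, CCNB1 to CCNB2 and CDC25B to CDC25C, and overlap for the other 2 pairs.

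Partners of the mitotic kinases were lower with few exceptions. Of 16 genes, which include activators of PLK1 and AURKA, the passenger complex of AURKB and the small CKS subunits of CDK1, 15 fell and 0 rose, with a median log2 fold change of -1.29, beside 0.01 over all genes tested. NEK2, a centrosomal kinase, fell from 71.2 ± 16.1 to 15.7 ± 2.65 CPM (SD, n = 4 each). CCNF, an F-box cyclin, and CDCA8, a passenger complex subunit, had log2 fold changes of -1.71 and -1.67. The call of CCNF was lost with counts irrespective of strand, at -0.36 (edgeR, Benjamini-Hochberg adjusted p = 0.136), and that of the other 2 was not. Counts irrespective of strand held fewer reads than sense counts in every library, 3190337 to 3971109 against 3447842 to 4291256. ENSA, an inhibitor of the PP2A phosphatase once phosphorylated, had a log2 fold change of -0.00 and did not pass.

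Over all genes tested, 28.5% fell and 29.4% rose, and the counts of the next 4 lists are to be set beside these shares. Of 7 tested genes that restrain entry into mitosis, 4 fell and 2 rose. PKMYT1, a CDK1-inhibiting kinase, fell from 46.1 ± 8.54 to 14.4 ± 1.602 CPM (SD, n = 4 each), or in log2 -1.67. WEE1, the other kinase of this type, had 59.9 ± 9.18 and 54.8 ± 6.64 CPM (SD, n = 4 each) and did not pass (log2 fold change -0.13; edgeR, Benjamini-Hochberg adjusted p = 0.352). CHEK1, the checkpoint kinase that inhibits CDC25 proteins, had a log2 fold change of -0.69, and SFN, a 14-3-3 protein that holds CDK1 complexes in the cytoplasm, one of -0.47. CDKN1A, the inhibitor p21 of cyclin-dependent kinases, rose from 702 ± 106 to 1430.1 ± 130 CPM, and GADD45A, which hinders CDK1 and cyclin B, from 233 ± 21.6 to 482 ± 37.7 CPM (SD, n = 4 each). Their log2 fold changes were 1.03 and 1.05, with standard errors of 0.09 and 0.08. RPRM had at most 1 count in a library and was not tested.

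The next list held 15 tested genes of MuvB, MYBL2, FOXM1 and NF-Y and related E2F, TFDP and pocket protein genes. Of these, 7 fell and 4 rose, with a median log2 fold change of -0.26, and both directions were also common among all genes. Against a fold change of 1.2, 6 fell and 2 rose. MYBL2, the MuvB partner that activates G2 genes, fell from 99.5 ± 27.3 to 24.1 ± 1.94 CPM, and FOXM1, the other activator, from 36.9 ± 9.44 to 19.9 ± 3.96 CPM (SD, n = 4 each). These are log2 fold changes of -2.05 and -0.88. Among MuvB core and pocket protein genes, LIN52 had -1.17 and RBL1 had -1.01, whereas LIN54, the subunit that reads the CHR, rose with 0.84. E2F5 had a log2 fold change of 0.57 and NFYB, an NF-Y subunit, one of 0.36. The call of NFYB was lost when libraries were scaled by size alone, at 0.29 (edgeR, Benjamini-Hochberg adjusted p = 0.0575), with DESeq2, at 0.35, without DMSO replicate 3, at 0.31, without dTAGV1 replicate 4, at 0.25, and against a fold change of 1.2.

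Of 17 tested genes of the APC/C, its enzymes and its inhibitor, 8 fell and 3 rose, with a median log2 fold change of -0.20, a number of calls near the 57.9% of all genes. Without DMSO replicate 3, 5 fell, and against a fold change of 1.2, 4 fell and 0 rose. FBXO5, the APC/C inhibitor of interphase, had -1.21 and UBE2C, its ubiquitin-conjugating enzyme, -1.19. FZR1, the activator that replaces CDC20 late in mitosis, had 14.5 ± 2.12 CPM (DMSO) and 6.10 ± 1.98 CPM (dTAGV1; SD, n = 4 each), or in log2 -1.25. With counts irrespective of strand, which hold fewer reads in each library, this became 0.04 (edgeR, Benjamini-Hochberg adjusted p = 0.919). The fall of FZR1 is thus not held by both ways of counting. The subunits ANAPC13, ANAPC5 and ANAPC11 had small rises of 0.36, 0.32 and 0.29, and these calls did not hold against a fold change of 1.2.

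Of 13 genes of phosphatases that reverse CDK1 phosphorylation, 2 fell and 5 rose, again near the 57.9% called over all genes. Their median log2 fold change of 0.14 was 0.06 without dTAGV1 replicate 2 or with scaling by library size alone, 0.09 without dTAGV1 replicate 1 and 0.08 without DMSO replicate 2. PPP2R5B and PPP2R5A, regulatory subunits of PP2A, rose with 0.87 and 0.84, and CDC14B and PPP2R2A fell with -0.95 and -0.54. PPP2R1B, a scaffold subunit, had a log2 fold change of 0.58 that became 0.12 with counts irrespective of strand (edgeR, Benjamini-Hochberg adjusted p = 0.608).

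Lists of other cell-cycle genes are given for scale, with no test of a difference from the 10 genes. Of 19 tested late cell-cycle genes outside the group (NUSAP1, with at most 1 count in a library, was not tested), 19 fell, with a median log2 fold change of -1.37. ECT2, a regulator of cytokinesis, had the largest fall of these, -1.89, followed by CDCA3 with -1.73 and BUB1B, a spindle checkpoint kinase, with -1.71. Of 20 DNA replication genes 19 fell, with a median of -1.23, with PCNA (0.05) as the exception and led by GINS4 with -1.74, MCM10 with -1.58 and GINS2 with -1.54. The medians of these lists bracket that of the 10 mitotic genes, -1.28.

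**Figure D5:**
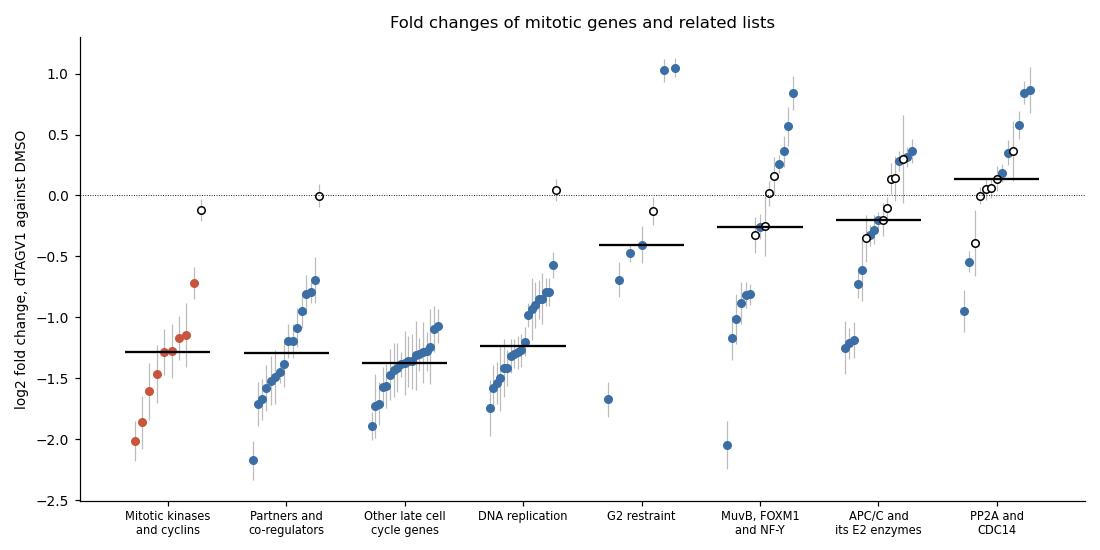
log2 fold change of dTAGV1 against DMSO (vertical axis) for each tested gene of 8 lists, with its standard error as a grey line; filled points passed the test, open points did not, and black bars are list medians. The 10 mitotic genes (red) have a median of -1.28, close to those of their partners (-1.29), other late cell-cycle genes (-1.37) and DNA replication genes (-1.23), while the other 4 lists have medians from -0.40 to 0.14.

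The genes with the profile most like the mean of the 10 were sought over the 8 libraries among 9238 genes that have a symbol and average 10 CPM or more. Likeness was the root mean square distance between log2 CPM profiles, each centred on its own mean. FBXO5 was nearest at 0.0753, followed by TUBB4B at 0.0915, BIRC5 at 0.0924, UBE2C at 0.0970 and HMGB2 at 0.104, where the median gene lay at 0.683. Among the 10 genes, PLK1 was nearest to their common mean at 0.106 and CDC25B farthest at 0.619. The distance of each of the 10 is helped by its own share in that mean.

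Neighbouring genes were read for comparison. CSTF1, which encodes a subunit of the cleavage stimulation factor, begins 33 bases from AURKA on the other strand. It had 35.3 ± 2.43 CPM (DMSO) and 31.0 ± 2.96 CPM (dTAGV1; SD, n = 4 each) and did not pass (edgeR, Benjamini-Hochberg adjusted p = 0.172). DCTN5, which ends 200 bases before PLK1 on the same strand, had a log2 fold change of 0.11, and CENPB, 81 bases from CDC25B on the other strand, one of -0.15, neither past the test. The noncoding gene CDC20-DT, 296 bases from CDC20 on the other strand, had 4, 10, 8 and 10 counts over the DMSO replicates 1 to 4 and, with dTAGV1, 0, 2, 1 and 0 counts. It was too low to be tested.

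Reads on the opposite strand give a readout of the same loci apart from the sense counts. Only CCNA2 and CCNB2 had enough of them to be tested; the other 8 genes had at most 9 in a library. CCNA2 had 146, 185, 192 and 156 opposite-strand counts over the DMSO replicates 1 to 4 and, with dTAGV1, 106, 99, 124 and 140. The fitted change was -0.56 in log2 (SE 0.13, edgeR with Benjamini-Hochberg adjusted p = 0.000565), where 48.4% of 3324 genes tested in this way passed and 24.5% passed with lower values. EXOSC9, an exosome subunit gene on the plus strand (chromosome 4, 121801317 to 121817021), overlaps the last 578 bases of CCNA2 tail to tail, so these reads lie on the strand of EXOSC9. EXOSC9 had 95.8 ± 7.94 CPM (DMSO) and 63.4 ± 4.19 CPM (dTAGV1; SD, n = 4 each), or in log2 -0.59. BBS7, which lies 506 bases from CCNA2 on its own strand, had -0.37 (edgeR, Benjamini-Hochberg adjusted p = 0.0167). CCNB2 had 14, 21, 22 and 34 opposite-strand counts with DMSO and 12, 16, 9 and 15 with dTAGV1, which overlap. This is a fitted log2 change of -0.82 (SE 0.31, edgeR with Benjamini-Hochberg adjusted p = 0.0254), and this call was lost without DMSO replicate 4 or dTAGV1 replicate 1 or 3. ENSG00000277144, a noncoding gene within CCNB2 on the other strand, had at most 3 counts in a library.

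NUDT21 protein recognises UGUA in RNA upstream of poly(A) sites, so the annotated transcript ends of the 10 genes were read for these letters. In the last 100 bases of 1 principal GENCODE 29 transcript for each gene, TGTA was found on the transcript strand in 7 of the 10 genes, against 55.3% of 10632 tested genes. A poly(A) signal, AATAAA or ATTAAA, lay in the last 40 bases in 9 of the 10, against 76.7%. The site used in these cells was not measured. CCNA2 and AURKB are shown for their TGTA, in capitals, and CDC20 and CDC25B, the genes with the largest and the smallest change, for their hexamer, in capitals, since neither held TGTA in this window.
CCNA2: agtgttgagtataTGTAtacatttgaaata
AURKB: gtatgtctgTGTATGTAtaggggaaagaag
CDC20: ttttatttttctAATAAAgtcatgtctccc
CDC25B: gggccttggttcAATAAAgcactgagcaag

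In CCNA2 the TGTA began 38 bases before the annotated end, and AURKB held 3 of them, the last beginning 52 bases before the end. Genes tested with TGTA in this window had a median log2 fold change of -0.01, and those without it one of -0.03.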

How the data were processed

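Poly(A) RNA of 8 libraries was sequenced from transcript 3′ ends with the Lexogen QuantSeq FWD V2 kit, per the labels' protocols, so a transcript gives about the same signal whatever its length. The deposited values are whole-number counts of reads per gene, made by the authors in the layout of STAR per-gene output. FastQC, fastp, STAR, HTSeq, DESeq2 and GRCh38 are named in the submitters' processing notes, with no version or role. The annotation and any removal of PCR copies are not given in the sources used here, so counting error is a lower limit. Counts on the gene strand were used, since the kit is forward-stranded and genes had 8.28 to 8.48 times as many reads on their own strand as on the opposite one. Reads given to no gene, 56.7% to 62.8% of a library, stayed out of library sizes and tests.

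Genes were filtered with filterByExpr, scaled with TMM and tested with edgeR 4.0.16 (robust quasi-likelihood test) in R 4.3.3, with Benjamini-Hochberg adjustment over all 12618 genes tested and a threshold of 0.05. A standard error is the absolute log2 fold change divided by the square root of F. The procedure was tested on simulated counts. Symbols were in a name table for 61481 identifiers, and coordinates, counted from 1, are those of GENCODE 29, which may not be the annotation the authors used. The 10 genes and the lists were chosen with earlier results of these data known. Named are all 10 genes, NUDT21, WEE1, PKMYT1, FOXM1, MYBL2 and FZR1, up to 3 called genes each way from each list, the 5 most alike profiles and neighbours within 5000 bases where the opposite strand was called. Other genes were named after their values were seen (ENSA, PCNA, CSTF1, DCTN5, CENPB, CDC20-DT, RPRM, NUSAP1 and the marker genes). Alternatives were DESeq2 1.42.0, limma-voom (limma 3.58.1), other scalings and filters, counts irrespective of strand, non-robust dispersion, a fold-change threshold of 1.2, a term for the replicate number, other pseudocounts, and leaving out each library. Replicate numbers were not taken to pair libraries.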

Additional observations from a re-analysis of the deposited data

Results flagged for a closer look

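In groups of 4 libraries, the highest or lowest value was compared with its nearest neighbour for the 10 genes and 5 ratios, 30 groups in all, of which chance flags about 1 in 20. CCNA2 in dTAGV1 replicate 4 stood at 36.4 CPM, far above the next library at 24.5 CPM. The log2 ratio of AURKA to AURKB in DMSO replicate 1 was -0.56, far below the next at -0.15, and in dTAGV1 replicate 3 it was 0.99, far above the next at 0.43.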

How the results depend on the processing

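Of the 10 genes, 9 were called lower and 0 higher under each alternative run, except that 8 of the 9 tested were called lower with a mean of at least 100 counts, where CDC25C was not tested. That filter also called 4120 genes in all, against 7302, since fewer were tested. CDC25B did not pass under any, with log2 fold changes from -0.20 to -0.03 and adjusted p-values from 0.0657 to 0.891 (edgeR, limma or DESeq2, Benjamini-Hochberg). Over the fits without 1 library, AURKA ranged from -1.31 to -0.96 and CDC20 from -2.14 to -1.91. The number of genes called on the opposite strand ran from 1 to 2, and was 1 without DMSO replicate 4 or without dTAGV1 replicate 1 or 3. All genes called ran from 6861 to 7232 over the fits without 1 library, and from 4120 to 8073 over all 19 alternatives, with 5317 against a fold change of 1.2 and 8073 with no filter.

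The numbers 1 to 4 are shared by both groups. Deviations of same-numbered libraries correlated at 0.131, -0.0176, 0.0232 and 0.0340, so they were not taken as pairs. With a replicate block, 9 of the 10 genes were lower and 7434 genes passed in all. Under the paired sign-flip test with the replicate block, the differences of 0.77 (AURKA to AURKB), -0.86 (CCNB1 to CCNB2) and 1.27 (CDC25B to CDC25C) had adjusted p = 0.156 each (exact permutation, Benjamini-Hochberg), since 4 pairs cannot go below 0.125. Without 1 library the 5 differences ran from 0.62 to 0.83 (AURKA to AURKB), from 0.26 to 0.47 (CCNA2 to CCNB1), from -0.96 to -0.82 (CCNB1 to CCNB2), from 1.06 to 1.47 (CDC25B to CDC25C) and from 0.21 to 0.34 (CDK1 to CCNB1). With 3 libraries against 4 the exact p cannot go below 0.0571, so none could pass. Scaling by library size alone moved the median gene by -0.0747. Low counts limit CDC25C, at 34 to 153 per library.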
